A study of Mus musculus with 4 samples.

Results

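Scavenger receptors are membrane proteins that bind modified lipoproteins, lipids, microbes and dying cells, and 10 genes of this group were followed on microarrays of mouse alveolar macrophages (AM) with and without TREM-2. The 10 are *Marco*, *Msr1*, *Colec12*, *Cd36*, *Scarb1*, *Scarb2*, *Cd68*, *Olr1*, *Cxcl16* and *Cd163*. They were taken by symbol from the 19946 genes that the array annotation names with a single symbol, and each was read by 1 probe set, so no choice between probe sets was needed. AM were recovered by bronchoalveolar lavage, which washes cells out of the airspaces, from WT mice and from TREM2-/- mice (written *Trem-2*-/- here), all 8 to 10 weeks old and given no treatment. The deletion was present in the whole animal and had been backcrossed 10 times onto the C57/Blk6 background that the WT mice share. WT mice came from a commercial breeder, both lines were bred in one facility, and they were not stated to be littermates. Each genotype had 2 arrays, and each array carried the RNA of AM pooled from several mice. How many mice made a pool, and whether the 2 pools of a genotype held different mice, were not given, so p-values measure only the spread between arrays, which may be technical. Values are log2 intensities after robust multi-array averaging (RMA), which removes background, gives the arrays a common distribution and joins a probe set's probes into 1 value. Probes differ in how strongly they bind, so the intensity of a probe set places it on the array and is no measure of how much transcript one gene has against another.

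Class A scavenger receptors are trimeric proteins with a collagen-like stalk, and macrophages use MARCO and SR-A (encoded by *Msr1*) to take up bacteria and inhaled particles in the airspace. Class B receptors cross the membrane at both ends. CD36 binds oxidized low-density lipoprotein, fatty acids and apoptotic cells, SR-B1 (*Scarb1*) exchanges cholesterol with high-density lipoprotein, and LIMP-2 (*Scarb2*) sits in the lysosomal membrane. The remaining members belong to other structural classes and share binding of oxidized lipids or other polyanions more than ancestry.

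None of the 10 genes passed the test between genotypes. At an adjusted p below 0.05 (limma with Benjamini-Hochberg adjustment over all genes) 0 of 10 were called, against 113 of 19946 genes, or 0.567%, over the whole array. At an unadjusted p below 0.05, 2 of 10 were below the threshold, *Cd36* with lower and *Marco* with higher values in *Trem-2*-/- AM, where 11.5% of all genes were. Significance analysis of microarrays (SAM), a permutation-based test, called 0 of 10 at a false-discovery rate of 5%, where it called 0.963% of all genes. When limma's prior variance was allowed to follow intensity and was made robust to outlying genes, the same 2 genes were called, where 3.35% of all genes were. The log2 difference, *Trem-2*-/- minus WT, was -0.25 for *Cd36* and 0.18 for *Marco*, and these calls rest on that choice of variance. In bulk RNA such as this, fewer cells of a type and less RNA per cell cannot be told apart.

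The label of the knockout was checked first. *Trem2* itself read 9.58 and 9.74 on the WT arrays and 7.64 and 7.45 on the *Trem-2*-/- arrays, a difference of -2.11 on the log2 scale (SE 0.10, adjusted p = 0.0009 with limma). Values of all genes correlated at 0.9975 between the WT arrays, at 0.998 between the *Trem-2*-/- arrays and at 0.9958 to 0.9962 across genotypes, so no array stood apart from its group. These correlations are across genes, which are not independent replicates.

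The *Cd163* probe set read below the lower quartile of every array, which was 4.84 to 4.93, and the probe sets of the other 9 genes read in the upper part of the intensity range of each array, at 10.24 or more. How far this reflects transcript or probe was not tested. Replicate arrays lay close together for the 10 genes, with a median gap of 0.043 between the WT arrays and 0.035 between the *Trem-2*-/- arrays, against 0.092 and 0.087 over all genes. That comparison was not matched for intensity, and 9 of the 10 lay at percentile 92.2 or more of every array. The arrays of the genotypes did not overlap for 8 of 10 genes, 4 higher and 4 lower in *Trem-2*-/- AM, where 42.8% of all genes did not overlap. This share was not matched for intensity either. Among the 8 were *Cd68*, separated by only 0.0084, and *Cd163*, separated by 0.031 at low intensity.

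**Figure D1:**
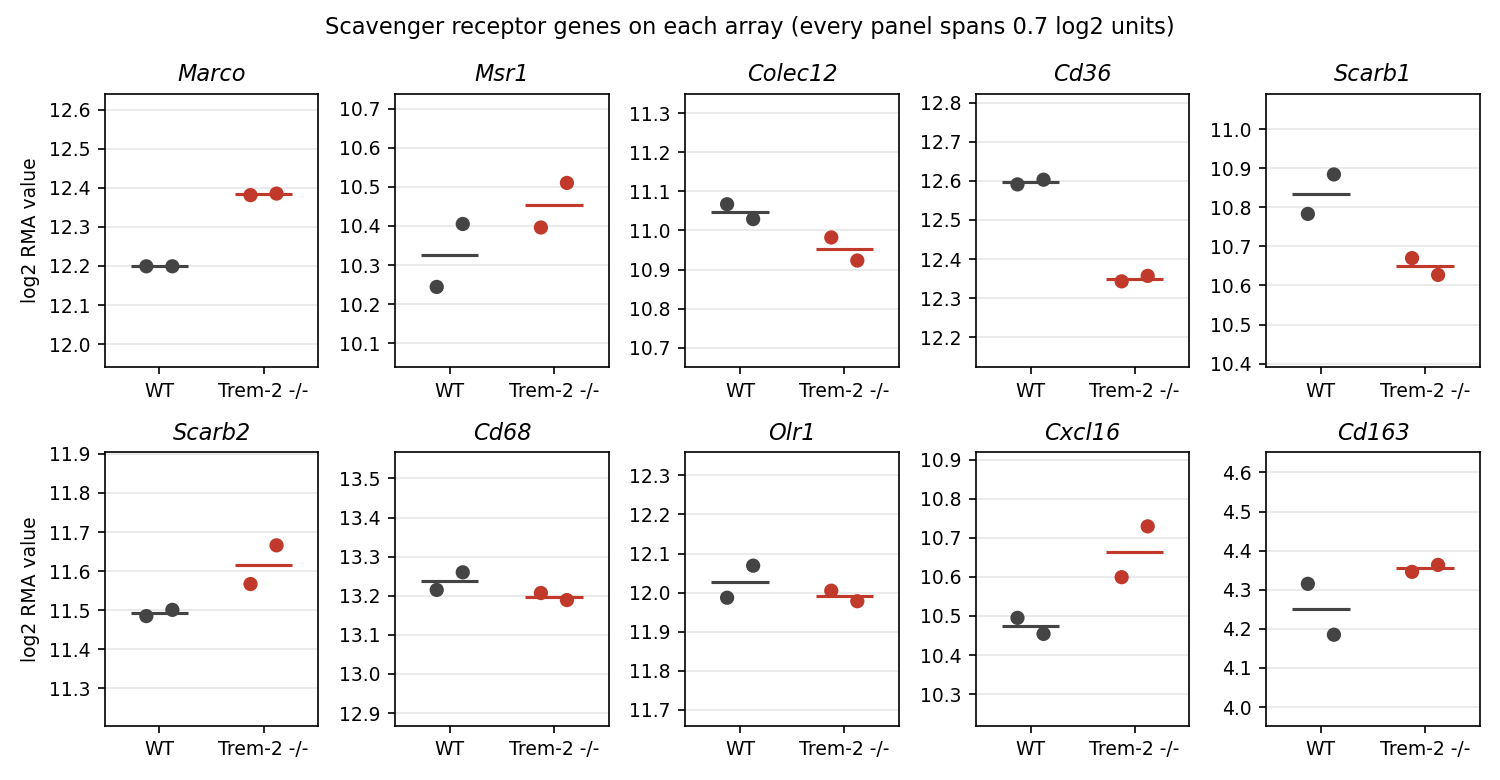
Log2 intensity (RMA) of each scavenger receptor gene on the 4 arrays, 1 panel per gene, with vertical axes of equal length that start at different levels. Points are single arrays, 2 WT and 2 *Trem-2*-/-, and the bar is the mean of a genotype. The *Cd36* arrays of the genotypes are separated by 0.234 and those of *Marco* by 0.182, while the arrays of *Msr1* and *Olr1* overlap.

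Among the class A genes, *Marco* had the clearest separation. Its probe set, 10357261 (Entrez gene 17167, chromosome 1), read 12.20 and 12.20 in WT AM and 12.38 and 12.39 in *Trem-2*-/- AM. Both *Trem-2*-/- arrays lay above both WT arrays, and the arrays of a genotype differed far less (SD 0.000255 and 0.00293, n = 2 each) than the genotypes did. The difference was 0.18 on the log2 scale, a level 1.14-fold that of WT (SE 0.070, 95% interval 0.01 to 0.35, limma unadjusted p = 0.038, adjusted p = 0.40). With the intensity trend and robust variance its adjusted p was 0.0097 and its interval 0.11 to 0.26.

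*Msr1* encodes SR-A, the macrophage receptor for acetylated lipoprotein after which the family was named. Its probe set, 10578264 (Entrez gene 20288, chromosome 8), read 10.24 and 10.41 in WT AM and 10.40 and 10.51 in *Trem-2*-/- AM. The genotypes overlapped, since the higher WT array lay above the lower *Trem-2*-/- array. The difference of 0.13 (SE 0.090, interval -0.09 to 0.35) did not pass the test (adjusted p = 0.65 with limma). It was 0.047 without the first WT array and 0.21 without the second.

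The promoter windows of 4 receptors are printed because they belong to the members at both ends of the genotype comparison. *Cd36* and *Marco* had the lowest p-values, and *Cd68* and *Olr1* the smallest differences. Sequences are from RefSeq (assembly GRCm38.p6), 250 bases before to 50 after the annotated start, 5′ to 3′ on the gene's strand. Capitals mark every match to GAGGAA, the core of the PU-box bound by the macrophage factor PU.1, and to TGANTCA, the AP-1 site, each searched on both strands with overlaps allowed.
Cd36, chr5:17835847-17836146, minus strand: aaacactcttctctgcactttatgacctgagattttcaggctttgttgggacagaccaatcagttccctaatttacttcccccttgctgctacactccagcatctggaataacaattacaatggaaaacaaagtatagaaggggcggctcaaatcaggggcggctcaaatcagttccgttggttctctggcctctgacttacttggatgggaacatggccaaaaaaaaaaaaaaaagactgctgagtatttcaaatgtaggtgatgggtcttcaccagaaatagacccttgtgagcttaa
Marco, chr1:120504975-120505274, minus strand: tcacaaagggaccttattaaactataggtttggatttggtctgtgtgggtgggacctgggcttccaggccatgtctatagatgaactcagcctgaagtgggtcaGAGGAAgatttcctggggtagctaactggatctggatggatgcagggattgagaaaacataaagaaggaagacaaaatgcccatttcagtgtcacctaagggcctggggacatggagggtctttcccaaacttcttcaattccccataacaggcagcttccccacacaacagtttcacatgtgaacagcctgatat
Cd68, chr11:69666121-69666420, minus strand: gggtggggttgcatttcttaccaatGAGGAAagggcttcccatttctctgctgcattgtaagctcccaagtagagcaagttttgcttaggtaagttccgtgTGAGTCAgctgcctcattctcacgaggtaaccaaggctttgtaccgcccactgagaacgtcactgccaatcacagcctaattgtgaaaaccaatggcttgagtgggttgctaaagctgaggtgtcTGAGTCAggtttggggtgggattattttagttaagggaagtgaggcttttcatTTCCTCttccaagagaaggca
Olr1, chr6:129507116-129507415, minus strand: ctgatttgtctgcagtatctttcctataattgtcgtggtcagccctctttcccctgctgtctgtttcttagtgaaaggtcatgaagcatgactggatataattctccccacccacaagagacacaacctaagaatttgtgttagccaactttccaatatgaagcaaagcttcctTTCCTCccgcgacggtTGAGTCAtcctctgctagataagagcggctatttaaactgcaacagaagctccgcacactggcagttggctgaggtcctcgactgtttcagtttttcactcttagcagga

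The *Cd36* window held no match to either motif. The *Marco* window held 1 PU-box that began at position -146 from the start. In *Cd68* PU-boxes began at -225 and 29 and AP-1 sites at -149 and -24, and in *Olr1* a PU-box began at -76 and an AP-1 site at -60. Among all 32851 promoter windows of the same length, 28.3% held a PU-box and 7.81% an AP-1 site. The direct repeat of AGGTCA spaced by 1 base, the response element of nuclear receptors such as PPARγ, was searched as well and was in 0.0396% of all windows and in none of these 4. Such matches describe letters in a short window and show no binding. Windows of *Cd163* and *Scarb2* were also found and held no match to any of these 3 motifs, which left 6 of 10 members with a window.

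The class B genes differed in sign. *Cd36*, probe set 10528207 (Entrez gene 12491, chromosome 5), read 12.59 and 12.60 in WT AM and 12.34 and 12.36 in *Trem-2*-/- AM. Both *Trem-2*-/- arrays lay below both WT arrays, with SDs of 0.0089 and 0.010 (n = 2 each). The difference was -0.25 (SE 0.070, 95% interval -0.42 to -0.08), a level 1.19-fold higher in WT AM, with an unadjusted p of 0.012 and an adjusted p of 0.28 from limma. With the intensity trend and robust variance the adjusted p was 0.00073 and the interval -0.32 to -0.17. It was the largest difference among the 10, and 8.60% of all genes differed by more.

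*Scarb1* lay in the same direction as *Cd36*. Its probe set, 10533929 (Entrez gene 20778, chromosome 5), read 10.78 and 10.88 in WT AM and 10.67 and 10.63 in *Trem-2*-/- AM. The *Trem-2*-/- arrays were the lower ones and did not overlap with WT. The difference of -0.19 (SE 0.077, interval -0.37 to 0.00) did not pass with limma (adjusted p = 0.44), nor with the intensity trend and robust variance (adjusted p = 0.070).

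*Scarb2*, on the same chromosome (probe set 10531437, Entrez gene 12492), lay in the opposite direction. It read 11.48 and 11.50 in WT AM and 11.57 and 11.67 in *Trem-2*-/- AM, with no overlap between genotypes. The difference of 0.12 (SE 0.076, interval -0.06 to 0.31) did not pass the test (adjusted p = 0.60 with limma), and was 0.074 without the second *Trem-2*-/- array. Whether the 3 class B genes differed from each other in their response was not tested.

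Of the other classes, *Cd68*, a heavily glycosylated protein of macrophage endosomes and lysosomes that is widely used as a macrophage marker, showed little difference. Probe set 10387536 (Entrez gene 12514, chromosome 11) read 13.22 and 13.26 in WT AM and 13.21 and 13.19 in *Trem-2*-/- AM. The *Trem-2*-/- arrays were lower, but by only 0.0084 at the closest pair. The difference was -0.04 (SE 0.071, interval -0.21 to 0.13, adjusted p = 0.88 with limma), and between -0.062 and -0.018 without 1 of the WT arrays.

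*Olr1* encodes LOX-1, a lectin-like receptor for oxidized lipoprotein best known from endothelium. Probe set 10548385 (Entrez gene 108078, chromosome 6) read 11.987 and 12.069 in WT AM and 12.005 and 11.978 in *Trem-2*-/- AM. The genotypes overlapped, and the difference of -0.04 (SE 0.074, interval -0.22 to 0.14, adjusted p = 0.89 with limma) became 0.0037 without the second WT array.

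*Cxcl16* encodes a chemokine that, while still anchored in the membrane, binds phosphatidylserine and oxidized lipoprotein and is also known as SR-PSOX. Probe set 10387890 (Entrez gene 66102, chromosome 11) read 10.49 and 10.45 in WT AM and 10.60 and 10.73 in *Trem-2*-/- AM. Both *Trem-2*-/- arrays were higher. The difference of 0.19, close to that of *Marco* in size, had an interval of 0.00 to 0.39 (SE 0.080) and did not pass (limma unadjusted p = 0.054, adjusted p = 0.45). The *Trem-2*-/- arrays of *Cxcl16* lay 0.13 apart, against 0.0041 for *Marco*, and the difference was 0.12 without the second of them.

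*Cd163*, the receptor for hemoglobin bound to haptoglobin, had the probe set with the low intensities. Probe set 10541644 (Entrez gene 93671, chromosome 6) read 4.32 and 4.18 in WT AM and 4.35 and 4.36 in *Trem-2*-/- AM. The *Trem-2*-/- arrays were higher by 0.031 at the closest pair, the difference was 0.10 (SE 0.079, interval -0.09 to 0.30, adjusted p = 0.67 with limma), and it was 0.040 without the second WT array and 0.17 without the first. RMA values this low lie near the background of an array, where differences are compressed.

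*Colec12*, the collectin-like class A receptor known mainly from vascular endothelium (probe set 10453747, Entrez gene 140792), read 11.07 and 11.03 in WT AM and 10.98 and 10.92 in *Trem-2*-/- AM. The *Trem-2*-/- arrays were the lower ones and did not overlap with WT. The difference of -0.10 (SE 0.073, interval -0.27 to 0.08) did not pass the test (adjusted p = 0.67 with limma).

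**Figure D2:**
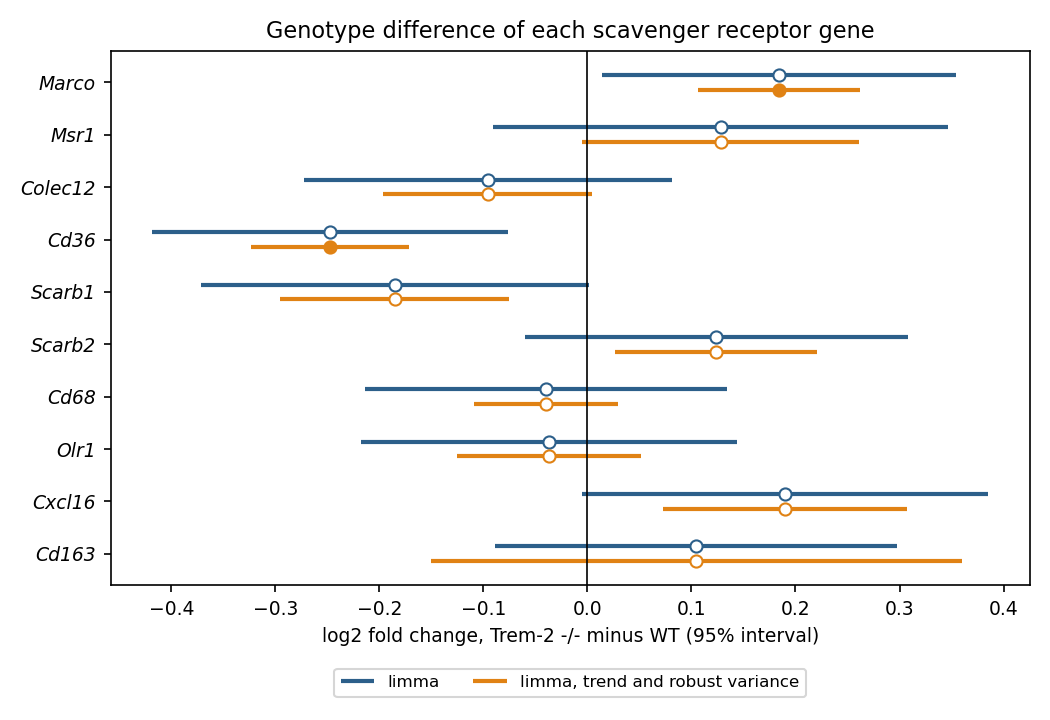
Difference in log2 intensity, *Trem-2*-/- minus WT, of each scavenger receptor gene with its 95% interval (not adjusted for the number of genes), from limma with a common prior variance and with an intensity trend and robust variance. Filled points have an adjusted p below 0.05 and open points do not. Only *Marco* and *Cd36* are filled, under the second variance model alone.

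Across the 10 genes, 5 differences were above 0 and 5 below, with a median of 0.03 on the log2 scale against -0.02 over all genes tested. Without the first WT array the median of the 10 was -0.0073. The median of their absolute differences was 0.126, against 0.0826 over all genes, and the smallest absolute difference that limma called anywhere on the array was 0.54. The 95% limma intervals of the 10, taken gene by gene, reached from -0.42 to 0.39. These bounds stand for a 1.34-fold fall and a 1.31-fold rise. They rest on the spread between 2 arrays per genotype, which may be technical, and differences at the low intensity of *Cd163* are compressed. Larger changes in transcript are thus not excluded. Medians by class were 0.13 for class A, -0.19 for class B and 0.03 for the others, over 3, 3 and 4 genes. An exact permutation test of 2 arrays against 2 cannot give a two-sided p below 0.333.

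Genes that work beside these receptors were grouped by role. Of 15 further scavenger receptors, 0 passed limma in either direction, with a median difference of 0.02. The mannose receptor *Mrc1* and the lipoprotein receptor *Lrp1*, differed by 0.02 and 0.04. The largest differences were those of *Ager*, the receptor for advanced glycation end products, at 0.48 (adjusted p = 0.14, and 0.0090 with trend and robust variance), of *Cd5l* at 0.25, of *Dmbt1* at 0.22 and of *Scarf2* at -0.22. *Cd5l* and *Dmbt1* read below the lower quartile of every array, as *Cd163* did. *Ager* is also a marker of the flat cells that line alveoli.

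Cholesterol handling held the largest change beside the receptors. Of 15 measured genes that process lipoprotein cholesterol inside the cell or export it, 2 rose, 0 fell and 13 did not pass, with a median difference of -0.01. *Apoe*, the apolipoprotein that macrophages secrete to carry cholesterol away, read 9.39 and 9.41 in WT AM and 11.17 and 10.98 in *Trem-2*-/- AM, a rise of 1.67 (SE 0.090, adjusted p = 0.0015 with limma). *Abca1*, the transporter that loads cholesterol onto apolipoproteins, read 8.53 and 8.33 against 9.09 and 9.11, a rise of 0.67 (SE 0.090, adjusted p = 0.049). *Abca1* lost its call without any one of the 4 arrays (adjusted p = 0.077 to 0.28), whereas *Apoe* passed in each of those fits. Among the genes that did not pass, the largest differences were those of *Abcg1* at 0.14, *Fabp5* at -0.12, *Nr1h3* at 0.10 and *Lpl* at -0.08. *Plin2*, which coats lipid droplets, and *Lipa*, the lysosomal lipase that frees cholesterol taken up by scavenger receptors, differed by -0.03 and 0.00.

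Of 14 measured genes whose products signal with CD36 or sit beside it in the membrane, 1 rose, 0 fell and 13 did not pass, with a median of 0.07. The gene that rose was *Cd14*, a co-receptor for bacterial lipids, which read 9.53 and 9.61 in WT AM and 10.12 and 10.13 in *Trem-2*-/- AM (0.56, SE 0.074, adjusted p = 0.047 with limma, and 0.15 to 0.28 with 1 array left out). *Tlr2*, which recognizes diacylated lipids together with CD36, differed by 0.19 (adjusted p = 0.40, and 0.010 with trend and robust variance). *Tlr4* differed by 0.17 and *Mertk*, a receptor for apoptotic cells, by 0.11, and neither passed.

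Of 10 measured genes tied to SR-B1 or LIMP-2, 0 passed in either direction, and the median was 0.00. The lysosomal genes among them lay close to 0, with *Lamp2* at 0.08, *Psap* at 0.07 and *Ctsd* at 0.05, while *Apoa1*, the main protein of high-density lipoprotein, was at -0.28 (adjusted p = 0.35). For the CXCL16 axis 0 of 4 genes passed. The sheddases that release the chemokine from the membrane, *Adam10* and *Adam17*, differed by 0.13 and 0.05, its receptor *Cxcr6* by 0.06 and the sheddase inhibitor *Timp3* by -0.04, and *Cxcr6* read below the lower quartile of every array.

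Of 10 genes on the path of hemoglobin and its iron, which starts at CD163, 1 rose, 0 fell and 9 did not pass, with a median of 0.05. *Slc40a1*, the iron exporter ferroportin, read 7.94 and 7.94 in WT AM and 8.83 and 8.73 in *Trem-2*-/- AM, a rise of 0.84 (SE 0.076, adjusted p = 0.013 with limma, and 0.068 to 0.10 with 1 array left out). Haptoglobin (*Hp*) differed by 0.34 (adjusted p = 0.18) and heme oxygenase (*Hmox1*) by 0.25 (adjusted p = 0.34), and both passed with the intensity trend and robust variance (adjusted p = 0.011 and 0.0053). The heme-binding gene *Hpx* differed by -0.12 (adjusted p = 0.74) and *Blvrb*, which reduces biliverdin, by -0.13 (adjusted p = 0.58).

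**Figure D3:**
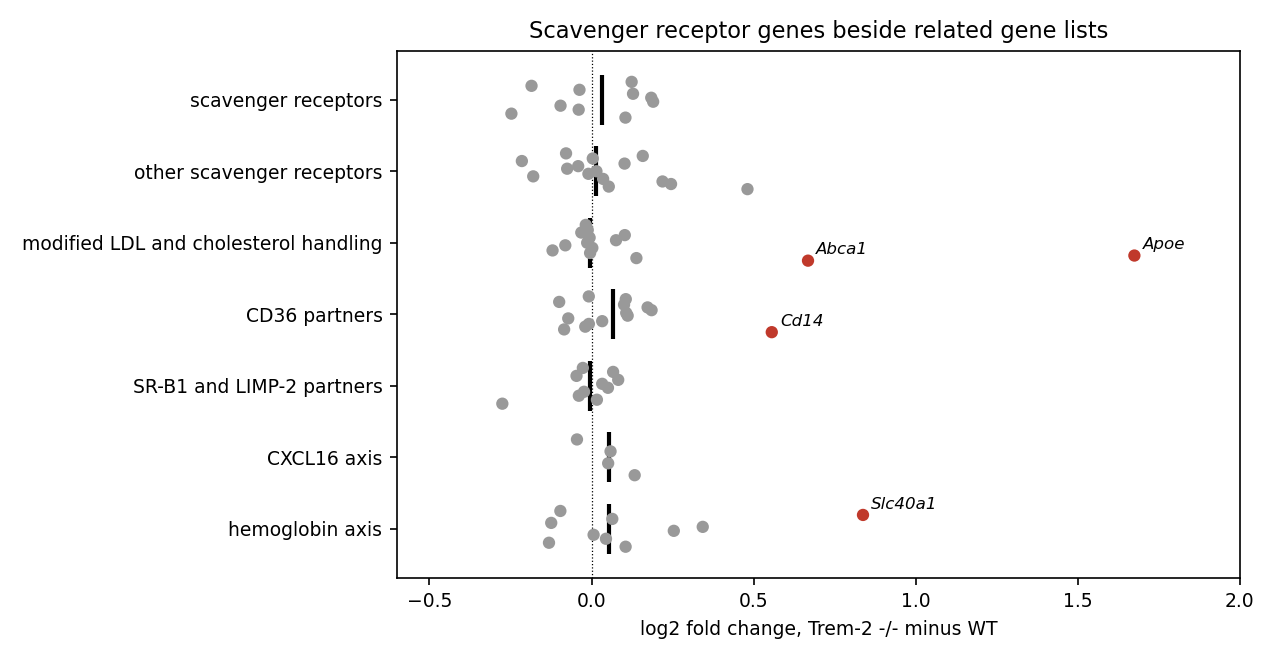
Difference in log2 intensity, *Trem-2*-/- minus WT, of the genes in each group, with 1 point per gene and a line at the median of the group. Red points passed limma and grey points did not. Most points lie near 0, and the red points, *Apoe* at 1.67, *Slc40a1* at 0.84, *Abca1* at 0.67 and *Cd14* at 0.56, lie to the right.

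Markers of the cells that lavage can hold were read beside the receptors. All 10 measured alveolar macrophage markers lay above the lower quartile of every array, among them *Siglecf* (11.37 and 11.32 in WT AM, 11.18 and 11.08 in *Trem-2*-/- AM) and *Itgax* (12.84 and 12.84, then 12.75 and 12.68). No lung epithelial or large cavity macrophage marker read below that quartile on all 4 arrays either, so this bar does not separate cell types. Only *Car4* of the 10 alveolar macrophage markers passed limma, at 0.90. The mean log2 value of their list was 10.70 to 10.73 in WT and 10.77 to 10.80 in *Trem-2*-/- AM. The median difference of the list was -0.03, with 3 of 10 genes above 0. With the intensity trend and robust variance 3 of the 10 were called higher (*Car4*, *Il18* at 0.46 and *Chil3* at 0.16) and 2 lower (*Siglecf* at -0.21, adjusted p = 0.022, and *Krt79* at -0.35, adjusted p = 0.0086). Among markers of macrophages from the interstitium or from monocytes, 7 of 11 genes were called higher in *Trem-2*-/- AM by limma and 0 lower (*Pf4*, *C1qa*, *C1qb*, *C1qc*, *Ccr2*, *Cx3cr1* and *F13a1*), and the mean of the list was 6.79 on both WT arrays and 7.60 on both *Trem-2*-/- arrays. The 3 C1q genes among them were picked by the study on these arrays. The 4 genes of this list that did not pass were *Csf1r* at 0.13, *Maf* at -0.01, *Folr2* at -0.07 and *Lyve1* at -0.09. Of 7 markers of large cavity macrophages, 5 were called higher and 0 lower (*Saa3*, *Cxcl13*, *Prg4*, *Alox15* and *Timd4*), with a list mean of 5.47 to 5.50 against 7.45 to 7.53. *Gata6* (0.53, adjusted p = 0.17) and *Icam2* (0.23, adjusted p = 0.38) did not pass limma. *Saa3* had the largest rise of all genes, at 4.67, and weighs on that mean. The marker lists were chosen with earlier results of these data known, so their counts and means do not test for such cells.

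Of 12 lung epithelial markers, 2 were called higher (*Cldn18* by 1.23 and *Scgb1a1* by 0.91) and 0 lower, with a list mean of 6.38 to 6.41 against 6.74 to 6.76. Over the 12, the arrays of the genotypes did not overlap for 6 higher and 4 lower genes, where 42.8% of all genes did not overlap. The intensity trend and robust variance called 5 higher and 1 lower, where 3.35% of all genes were called. The lower one was *Cdh1* at -0.45 (adjusted p = 0.0060). The higher ones were *Cldn18*, *Scgb1a1*, *Ager*, *Krt8* at 0.83 and *Krt18* at 0.95. SAM called these except *Ager*. None of 10 neutrophil, 8 dendritic cell, 9 lymphocyte and 8 endothelial markers passed limma. With the intensity trend and robust variance, which called 3.35% of all genes, 1 neutrophil marker was called higher and 1 endothelial marker lower. These were *Csf3r* at 0.64 (adjusted p = 0.00073), which SAM also called, and *Vwf* at -0.37 (adjusted p = 0.0032). Of the neutrophil markers 8 of 10 were above 0. Beside *Csf3r* these were *Ltf* at 0.35, *Mmp9* at 0.32, *Ngp* at 0.30, *Camp* at 0.19, *S100a9* at 0.09, and *S100a8* and *Ly6g* at 0.02. *Retnlg* was at -0.08 and *Cxcr2* at -0.28. Arrays of the genotypes did not overlap for 3 of the 10, all higher in *Trem-2*-/- AM. The arrays did not overlap for 6 of the 8 endothelial markers, all lower in *Trem-2*-/- AM. Over all genes 42.8% did not overlap, 3467 higher and 5067 lower. With 1 array left out, *Ccr2* (adjusted p = 0.062 to 0.20), *Cx3cr1* (0.12 to 0.20), *F13a1* (0.081 to 0.25) and *Scgb1a1* (0.054 to 0.12) lost their call in all 4 fits. *C1qa* (up to 0.090) and *Car4* (up to 0.22) lost it in 3 fits, *Timd4* (up to 0.24) without either *Trem-2*-/- array and *Cldn18* (0.069) without the second of them, while the other markers named kept it. No marker stood at 0, since RMA leaves a background level in every probe set. The part of these shifts in the values of *Cd36*, *Marco* and the other receptors, and in the rises of *Apoe*, *Abca1*, *Cd14* and *Slc40a1*, was not tested.

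**Figure D4:**
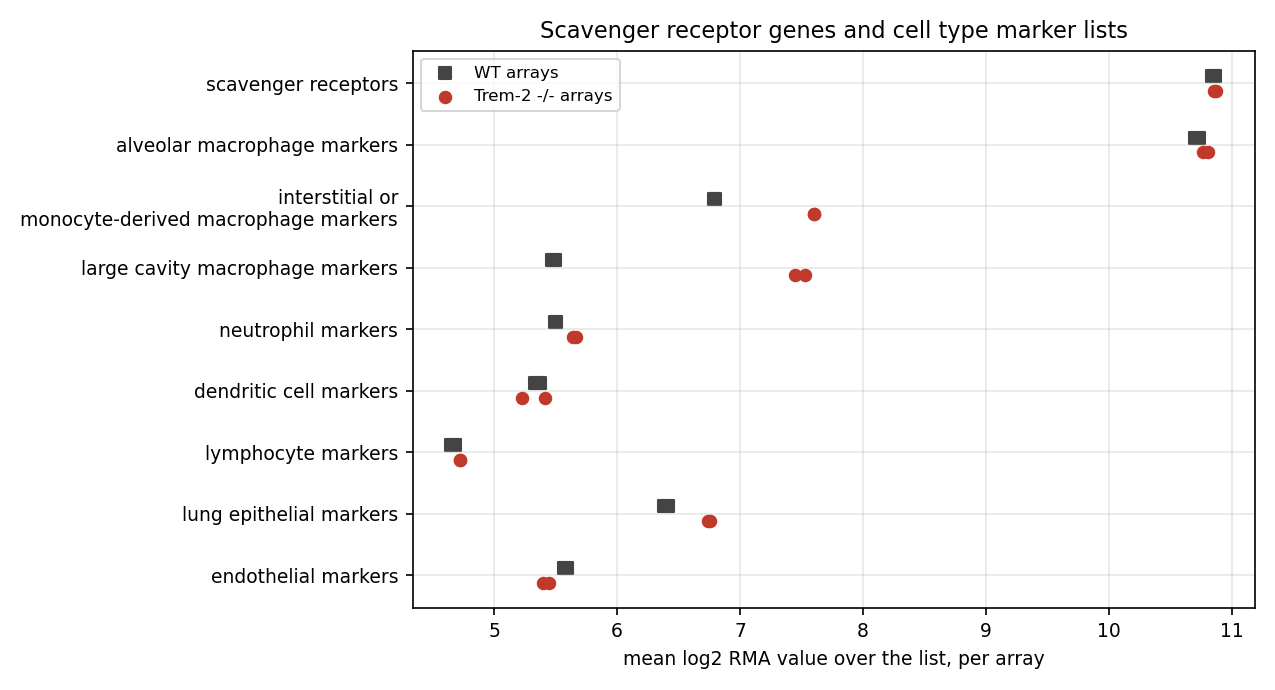
Mean log2 intensity of the scavenger receptor genes and of each list of cell type markers, with 1 point per array (WT squares, *Trem-2*-/- circles). The lists of interstitial or monocyte-derived and of large cavity macrophages are higher on both *Trem-2*-/- arrays than on the WT arrays. They are at 7.60 and 7.45 to 7.53 against 6.79 and 5.47 to 5.50. The alveolar macrophage list is at 10.77 to 10.80 on the *Trem-2*-/- arrays and 10.70 to 10.73 on the WT arrays, with 3 of its 10 genes above 0.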

How the data were processed

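RNA of pooled AM was hybridized to Affymetrix Gene 1.0 ST arrays, 2 per genotype. The authors deposited log2 intensities made by RMA, with build mm9 named in the submitters' processing notes, and these values were used as they were. Equalizing the arrays can hide a shift shared by all genes, and the number of arrays limits the precision. Of 35557 probe sets, 21797 had 1 symbol in the platform annotation, 1613 had several and 12147 were not listed. Of those with 1 symbol, 21698 matched RefSeq (GRCm38.p6), used for names and promoter sequences only. For each of the 999 genes with several, the brightest one (by mean over the arrays) was kept, leaving 19946 genes.

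Genotypes were compared with limma 3.58.1 in R 4.3.3 (lmFit, then eBayes with a common prior variance, no block) over all genes, with Benjamini-Hochberg adjustment and a threshold of 0.05. Alternatives were SAM, the test named in the study's methods, run over all 6 assignments of the arrays at a false-discovery rate of 5%, robust variance with an intensity trend, a replicate block, quantile normalization, median centring, averaging of probe sets within a gene, testing of every probe set, a mean log2 value of at least 6, and leaving out each array. The trend alone, robust variance alone, and both together with the block or with an array left out were chosen after seeing the data. The fits were tested on simulated data.

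The members and lists were chosen with earlier results of these data known. The text names all members, *Trem2*, every gene of a related list that passed limma with at most 4 others per list by absolute difference, and of the marker lists those that passed and the defining markers by level. *Mrc1*, *Lrp1*, *Plin2*, *Lipa* and the named marker genes that did not pass limma, other than *Siglecf* and *Itgax*, were added after their values were seen. Some entries of the lists are not reported here.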

Additional observations from a re-analysis of the deposited data

How the results depend on the processing

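With limma and a common prior variance, 0 of 10 receptors were called under quantile normalization, median centring, averaging of probe sets within a gene, testing of every probe set, robust variance alone, or any array left out, and SAM called 0 of 10. With a mean log2 value of at least 6, 0 of the 9 left were called. With the replicate block 0 of 10 were called as well (*Marco* 0.18, *Cd36* -0.25), and over all genes 98 were called up and 31 down. The labels share only a number between genotypes, and deviations of same-numbered arrays correlated at -0.052 over genes. An intensity trend and robust variance called 2, *Marco* (0.18, adjusted p = 0.0097) and *Cd36* (-0.25, adjusted p = 0.00073). The trend alone called the same 2 (adjusted p = 0.012 and 0.0011). Trend and robust variance with the replicate block called 4, *Marco* (0.18), *Cd36* (-0.25), *Scarb1* (-0.19, adjusted p = 0.016) and *Cxcl16* (0.19, adjusted p = 0.016). Trend and robust variance without 1 array called 1 to 3, where over all genes 177 to 362 were called up and 110 to 248 down. *Cd36* passed in all 4 of those fits (-0.25 to -0.24, adjusted p = 0.00018 to 0.041), *Marco* only without a *Trem-2*-/- array (0.18 and 0.19), and *Cxcl16* only without the first *Trem-2*-/- array (0.26, adjusted p = 0.015). *Olr1* changed sign without the second WT array (0.0037, range over arrays left out -0.078 to 0.0037), with either variance model. The cause was not tested. Over the 9 receptors with a mean log2 value of at least 6 the median difference was -0.037, because that filter drops *Cd163*. Counts over all genes, up and down, were 86 and 27, against 379 and 290 with trend and robust variance, 355 and 273 with the trend alone, 560 and 484 with trend, robust variance and block, 173 and 19 with SAM, 207 and 150 above a mean log2 value of 6, 21 and 2 over all probe sets, and 22 to 43 and 4 to 7 with an array left out. *Apoe*, *Abca1*, *Cd14*, *Slc40a1*, *Pf4*, *C1qa*, *Ccr2*, *Cx3cr1*, *F13a1*, *Car4*, *Cldn18*, *Scgb1a1* and *Timd4* were not called over all probe sets, nor *Cd14* with the block. With 2 arrays per genotype, the calls of *Marco* and *Cd36* depended on how the variance was modelled.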
